A study of Mus musculus with 6 samples.

Results

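Histone genes were followed in the spleens of mice given cyclophosphamide (Cy), with and without schisandrol A (SA), a lignan of Schisandra chinensis. The set takes every gene whose current symbol starts with H1f (linker histones), H2ac, H2bc, H3c or H4c (clustered genes of the core histones), found through the RefSeq transcript that each probe names. RefSeq lists 70 such genes. The array held 48 of them with 52 probes, among 20659 genes and 39429 probes in all, and 31 of the 48 were bright enough to be compared and had a value on every array.

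The nucleosome is a spool of the core histones H2A, H2B, H3 and H4 around which DNA is wrapped, and the linker histone H1 binds where the DNA enters and leaves it. Most of these genes lie in clusters and are copied into RNA during S phase, when new DNA has to be packed. Their mRNAs usually end in a stem-loop bound by Slbp in place of a poly(A) tail, so that their level follows DNA synthesis closely. Whether the arrays read mRNAs without that tail as fully as others was not tested. In the spleen the dividing cells are activated lymphocytes and, when blood cells are short, the precursors of red cells, and Cy is an alkylating drug that kills dividing cells.

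The spleens came from male ICR mice, an outbred strain, 8 weeks old. The SA-H group (arrays 4, 5 and 6) had Cy by intraperitoneal injection at 40 mg/kg for 5 days and then SA by mouth at 1000 mg/kg per day for 4 weeks, and its labels give day 28. The paper's own animal experiment uses the name SA-H for another dose and a shorter course, and the labels are followed here. The MOD group (arrays 1, 2 and 3) had the same Cy, and its labels give day 5, although the protocol also lists distilled water for model mice over the SA weeks. Where the labels are right, group and day cannot be told apart. The sources do not say whether the 3 arrays per group are from separate mice, so each p-value reflects a spread between samples that may be technical.

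Each array was hybridized with Cy3-labelled RNA and read in 1 colour at 43020 spots apart from controls, of which 43.1% to 73.9% were well above background by the scanner software. A level is the log2 of the processed signal relative to the 75th percentile of its array, so that a level of 0 is that percentile. The number of arrays limits the precision. SA-H array 6 shared its scan day with MOD arrays 1 and 3, SA-H array 4 shared its day with MOD array 2, and SA-H array 5 had a day of its own. The labels name spleen, while the extraction text also speaks of liver. Of 12 liver markers 4 were bright enough to be tested, of which Apoa2, Serpina1a and Tat were well above background on all 6 arrays and Cyp2e1 on 5. Apoa1 and Ttr were not well above background on any array, whereas 12 of 12 T cell markers and 10 of 11 B cell markers were tested.

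The promoters of histone genes carry short elements that tell the families apart, and the bases before the start of 8 members are shown for that reason. RefSeq promoter windows (GRCm38.p6, from 250 bases before to 50 bases after the annotated start) were found for 43 of the 48 genes. Both strands of each window were searched for the CCAAT box, for TATAA as the TATA box, for ATTTGCAT as the octamer of H2B promoters, for AAACACA as the H1 box, and for GGTCCG as a part of the element of H4 promoters. Only 1 pair of motif matches overlapped among the 28 tested members with a window (the CCAAT box with GGTCCG in H3c11). Capitals in the sequences below mark the matches on either strand. Each run holds the 140 bases that end just before the annotated start, on the strand of the gene. H1f2, H1f4 and H1f5 are shown as linker histones of dividing cells, H1f8 as the linker histone of the oocyte, and H2ac4, H3c13, H3c4 and H4c17 as core histone genes lower in the SA-H group.
H1f2 (chr13:23738667-23738806, plus strand): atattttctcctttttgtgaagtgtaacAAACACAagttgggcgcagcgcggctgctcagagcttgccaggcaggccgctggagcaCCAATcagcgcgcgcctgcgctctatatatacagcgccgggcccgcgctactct
H1f4 (chr13:23622559-23622698, minus strand): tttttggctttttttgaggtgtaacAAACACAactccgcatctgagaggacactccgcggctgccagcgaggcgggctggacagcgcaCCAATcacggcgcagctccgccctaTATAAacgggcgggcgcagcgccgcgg
H1f5 (chr13:21780626-21780765, minus strand): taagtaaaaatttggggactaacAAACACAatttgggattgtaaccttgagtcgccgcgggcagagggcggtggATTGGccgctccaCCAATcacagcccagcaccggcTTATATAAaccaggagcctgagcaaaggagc
H1f8 (chr6:115944791-115944930, plus strand): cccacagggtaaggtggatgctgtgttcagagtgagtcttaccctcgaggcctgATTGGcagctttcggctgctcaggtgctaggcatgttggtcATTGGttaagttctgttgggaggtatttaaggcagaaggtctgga
H2ac4 (chr13:23750948-23751087, plus strand): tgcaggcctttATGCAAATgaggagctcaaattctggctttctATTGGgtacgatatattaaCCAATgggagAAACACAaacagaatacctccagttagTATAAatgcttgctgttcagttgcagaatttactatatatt
H3c13 (chr3:96268514-96268653, plus strand): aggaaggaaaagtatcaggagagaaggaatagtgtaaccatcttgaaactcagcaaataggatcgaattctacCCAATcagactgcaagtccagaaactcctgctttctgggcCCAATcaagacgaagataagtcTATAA
H3c4 (chr13:23575623-23575762, plus strand): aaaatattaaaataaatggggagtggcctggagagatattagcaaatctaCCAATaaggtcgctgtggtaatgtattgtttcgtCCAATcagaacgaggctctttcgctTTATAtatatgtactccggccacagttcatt
H4c17 (chr13:21811606-21811745, plus strand): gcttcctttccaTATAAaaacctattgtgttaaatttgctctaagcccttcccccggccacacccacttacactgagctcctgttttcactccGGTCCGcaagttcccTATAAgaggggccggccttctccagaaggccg

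The motif counts followed the families. CCAAT stood in 13 of 13 H2ac, 8 of 8 H2bc and 5 of 5 H3c windows, in 7 of 10 H1f windows and in 2 of 7 H4c windows, against 37.9% of all 27025 promoters. GGTCCG stood in 7 of 7 H4c windows and 8.39% of all promoters. The H1 box stood in 5 of 10 H1f windows and 7.14% of all promoters, and in H1f2, H1f4 and H1f5 it began at positions -112, -115 and -117, counted from the annotated start, with CCAAT at -54, -52 and -53. The octamer stood in 5 of 8 H2bc and 6 of 13 H2ac windows and in 1.75% of all promoters, and TATAA in 74.4% of the members and 25.5% of all promoters. H1f8 held CCAAT on the opposite strand and neither the H1 box nor TATAA, and H1f2 reads tatatata where H1f4 and H1f5 hold TATAA. These matches are letters in a window and say nothing of what binds there.

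Histone genes were more often lower than higher in the SA-H group. When a call needs fold 2 or more together with an unadjusted p below 0.05 (limma), 6 of the 31 tested genes (19.4%) were called lower, against 5.03% of all 14474 genes and unnamed targets tested, and 1 of 31 (3.23%) was called higher, against 7.74%. The genes called lower were H3c13, H4c17, H1f2, H2ac4, H3c8 and H3c4, and the gene called higher was H1f8. Of these, H4c17, H2ac4 and H3c8 entered the tests through the MOD group alone, where they were brighter, so the filter favours a fall in them. When a probe had to be well above background on all 6 arrays, 3 of 27 histone genes were called lower, against 3.46% of all then tested. By p alone, 11 of 31 were lower, against 12.5% of all tested, and 1 was higher, against 10.8%. The 3 SA-H arrays all lay below the 3 MOD arrays for 11 of 31 genes, against 20.7% of all tested, and all above for 1, against 11.9%. The median log2 fold change of the 31 genes was -0.39, with 23 below 0 and 8 above, and that of all tested was -0.04.

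With the adjustment of limma p-values over all 14474, 0 of 31 histone genes and 0% of all tested passed an adjusted p of 0.05, while 3377 of all tested had an unadjusted p under 0.05. The count of histone genes past that adjusted p was 6 with scaling by the array median, 14 in the authors' own log2 value table and 1 with normexp, another background correction. Over all 14474 tested, the same settings gave 1094, 1779 and 210. With scan day as a block, 4 histone genes and 1075 of all tested passed. The smallest adjusted p in the main comparison was 0.0762 among the histone genes and 0.0712 among all tested. Copies of a histone gene are nearly identical within a family, and a probe can read several of them, so that the gene named is the one its probe was designed for. In a whole spleen, fewer cells of a type and less RNA per cell cannot be told apart.

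**Figure D1:**
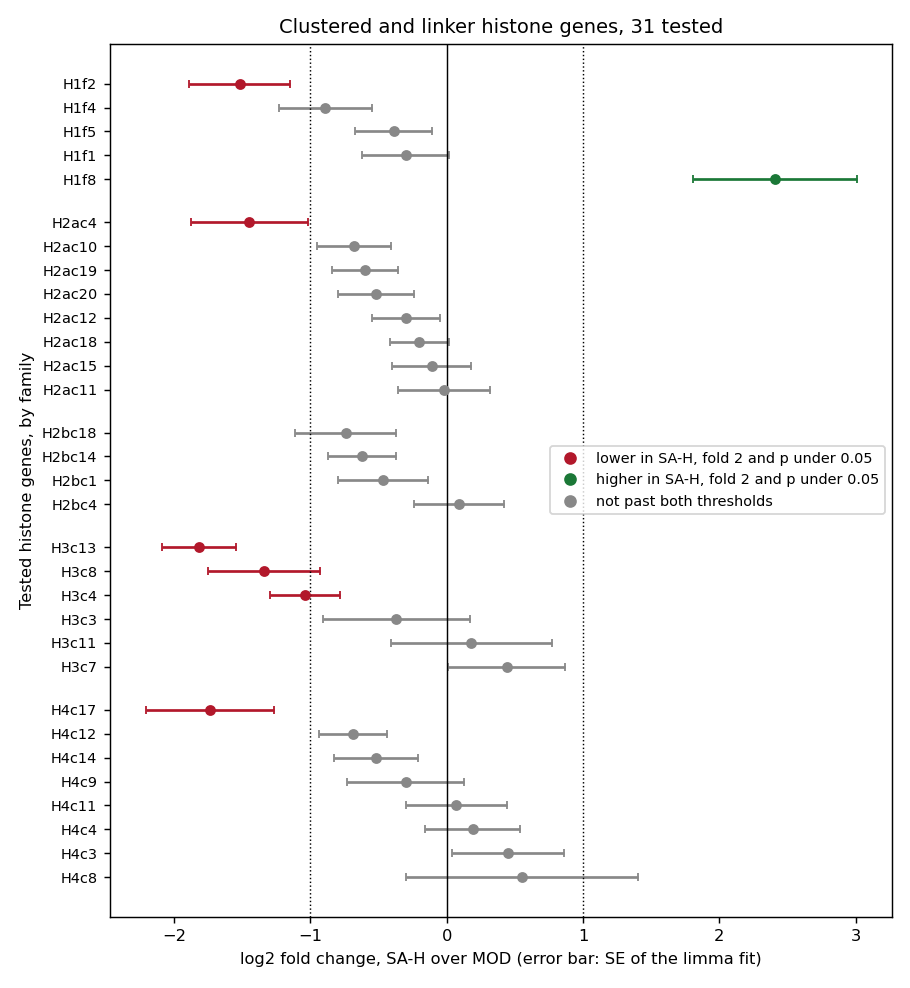
The 31 tested histone genes by family (down the page) and their log2 fold change, SA-H over MOD (across, point with the SE of the limma fit, dotted lines at fold 2). Red points mark the 6 genes called lower, from -1.82 for H3c13 to -1.04 for H3c4, the green point marks H1f8 at 2.41, and the other 24 are grey.

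Of the 5 linker histones tested, 1 was called lower and 1 higher. H1f2 (formerly Hist1h1c), a linker histone of most body cells, had levels of 0.52, 1.67 and 1.72 on the SA-H arrays, against 2.94, 2.93 and 2.60 on the MOD arrays. All 3 SA-H arrays lay below the MOD arrays, and SA-H array 4 was the lowest. Its log2 fold change was -1.52 (SE 0.37), 2.86-fold lower, with an adjusted p of 0.0937 (limma). In the authors' value table, where only 1 of 6 columns correlates best with the array of its own label, it was -0.25 and not called.

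H1f8 (formerly H1foo), the linker histone known from the oocyte, ran the other way. It had levels of 1.92, 0.30 and -0.34 on the SA-H arrays, against -2.21, -1.10 and -2.04 on the MOD arrays, and was well above background on all 6 arrays. The groups did not overlap, and the SA-H arrays were spread over a wider range (SD 1.16) than the MOD arrays (SD 0.60). Its log2 fold change was 2.41 (SE 0.60), 5.31-fold higher, with an adjusted p of 0.0971 (limma), and in the authors' value table it was 0.29 and not called. Of the 31 tested genes, H1f8 was the only one on chromosome 6, outside the main clusters.

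The other linker histones tested serve dividing cells and were not called. H1f4 had levels of -0.68, -0.91 and -0.25 in the SA-H group and 0.64, -0.31 and 0.51 in the MOD group, a log2 fold change of -0.89 (SE 0.34, adjusted p = 0.18, limma). Its groups overlapped through MOD array 2 alone, which lay below SA-H array 6. It was called lower with scaling by the array median (-1.21), without MOD array 2 (-1.19) and without SA-H array 6 (-1.08). H1f5 had levels of -2.52, -3.28 and -2.82 in the SA-H group and -2.23, -2.61 and -2.62 in the MOD group (log2 fold change -0.39, SE 0.28), and H1f1 had levels of -1.42, -2.37 and -2.26 in the SA-H group and -1.59, -1.54 and -2.01 in the MOD group (-0.30, SE 0.32). Both overlapped between groups.

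Among the H2A genes, 8 of 8 tested had a log2 fold change below 0 (7 of 8 with normexp and in the authors' value table), from -1.45 to -0.02 with a median of -0.41, and 1 was called lower. That gene was H2ac4, with levels of -3.59, -2.76 and -1.84 in the SA-H group, against -1.14, -1.34 and -1.35 in the MOD group. The SA-H arrays all lay below the MOD arrays, and 2 SA-H arrays had the spot well above background, so that the gene was dim where it was low. Its log2 fold change was -1.45 (SE 0.43, adjusted p = 0.126, limma), and -0.67 with normexp, which ends the call. Of the 8 H2A genes, 7 were called lower in the authors' value table, against 6.92% of all tested, and 0 with normexp, against 2.63%. H2ac10 (-0.68) and H2ac19 (-0.60) had an unadjusted p under 0.05 without reaching fold 2 and did not overlap between groups. H2ac12 is given because its probe read highest among the H2A genes, which depends on the probe as well as the mRNA. It had levels of 6.60, 6.06 and 6.58 in the SA-H group and 6.78, 6.66 and 6.70 in the MOD group. Its groups did not overlap either, but the log2 fold change was -0.30 (SE 0.25, adjusted p = 0.473, limma), and most of it came from SA-H array 5. In the authors' value table it was -1.46 and called lower.

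H2B genes were the least covered, with 4 of 10 tested and 0 called. Their log2 fold changes ran from -0.74 (H2bc18) to 0.09 (H2bc4), with a median of -0.54. H2bc14 had an unadjusted p under 0.05 at -0.62, and its SA-H arrays all lay below the MOD arrays. H2bc1, formerly Hist1h2ba, is known as the H2B gene of the testis, and its probe was well above background on all 6 arrays at a log2 fold change of -0.47. H2bc4, chosen by the same rule, had levels of 3.43, 2.34 and 2.65 in the SA-H group and 2.55, 2.90 and 2.70 in the MOD group, which overlapped, and the sign of its log2 fold change was negative with scaling by the array median, in the authors' value table and without SA-H array 4.

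H3 genes gave 3 of the 6 calls, with 6 of 7 tested and a median log2 fold change of -0.70. H3c13 lies in the cluster on chromosome 3 and had levels of 0.85, 0.33 and 1.04 in the SA-H group, against 2.64, 2.41 and 2.62 in the MOD group. The gap between the groups was wider than the range within either, and the fold change was the largest fall of the 31 genes, at -1.82 on the log2 scale (SE 0.27), 3.52-fold lower, with an adjusted p of 0.0762 (limma). H3c4 had levels of 2.82, 2.67 and 2.76 in the SA-H group, against 4.19, 3.68 and 3.51 in the MOD group. The groups did not overlap, and its log2 fold change of -1.04 (SE 0.26, adjusted p = 0.0974, limma) lay just past fold 2. It was -0.43 in the authors' value table and -0.84 without MOD array 1, which ends the call.

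H3c8 lay near background, with levels of -2.09, -3.56 and -2.72 in the SA-H group, against -1.10, -1.47 and -1.77 in the MOD group. Its spot was well above background on 2 SA-H arrays, and its log2 fold change was -1.34 (SE 0.41, adjusted p = 0.129, limma), with -0.60 under normexp and -0.96 without SA-H array 5, neither of them called. The remaining H3 genes were not called: H3c3 had a log2 fold change of -0.37, H3c11 of 0.18 and H3c7 of 0.44, and all overlapped between groups. In the authors' value table H3c11 was at -0.70 and H3c7 at -1.12, where H3c7 was called lower.

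H4 genes encode the same protein from separate copies, and their values did not run one way. All 8 on the array were tested, with 4 below 0 and 4 above (6 and 2 with scaling by the array median, 7 and 1 in the authors' value table), a median log2 fold change of -0.11 and a range from -1.74 to 0.55. H4c17 had levels of -2.76, -4.12 and -4.51 in the SA-H group, against -1.91, -1.78 and -2.47 in the MOD group. Its spot was well above background on 1 SA-H array, so the size of its log2 fold change of -1.74 (SE 0.47, adjusted p = 0.109, limma) rests on dim spots. It was -0.67 and not called under normexp, and 0.07 in the authors' value table. H4c12, whose probe read highest in the family, had levels of 1.09, 0.55 and 0.71 in the SA-H group, against 1.27, 1.55 and 1.61 in the MOD group, without overlap. Its log2 fold change was -0.69 (SE 0.25, adjusted p = 0.169, limma), and -1.02, called lower, with scaling by the array median.

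Probes of 1 gene did not always give the same value. The other probe of H4c12 had a log2 fold change of 0.11 beside -0.69, and the probes of H4c14 gave -0.52 and 0.09. H2ac15 gave -0.11 on the probe that stands for the gene and -0.81 on the other (unadjusted p = 0.0181, limma over probes). The second probe of H4c9 was too dim to be compared.

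**Figure D2:**
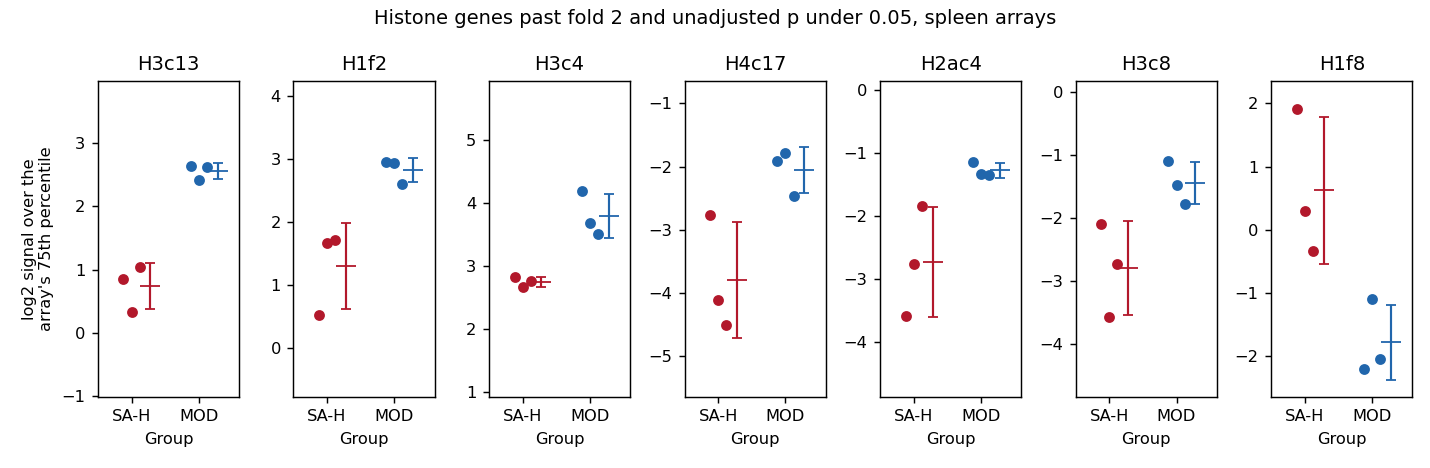
Levels (log2 signal over the 75th percentile of the array, own scale for each gene, each axis spanning the same range) of the 7 called histone genes on the 3 SA-H arrays (red, left) and the 3 MOD arrays (blue, right), with the mean and SD beside the points. H3c13 averaged 0.74 in the SA-H group and 2.56 in the MOD group, and in H1f8 alone the SA-H points lie above the MOD points.

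The lower values were not shared evenly by the SA-H arrays. Over all tested, SA-H array 4 stood apart, with correlations of 0.84 to 0.90 with the MOD arrays, against 0.91 to 0.96 for SA-H arrays 5 and 6, and its 75th percentile of 220 was the lowest of the 6 arrays (433 to 868 on the others). Without SA-H array 4, 7 histone genes were called lower, against 3.5% of all tested, and the median over the 31 histone genes was -0.57. SA-H array 5 had the lowest value of all 6 arrays for 23 of the 31 genes, and SA-H array 4 had the highest for 9. MOD array 1 had the highest for 15. After the mean of each gene was subtracted, the median over the 31 genes was 0.04, -0.58 and -0.14 on SA-H arrays 4, 5 and 6 and 0.32, 0.23 and 0.10 on MOD arrays 1, 2 and 3. H4 genes stood out on SA-H array 4, where their centred median was 0.73, against -0.15 for H3 genes on the same array.

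Scan days gave differing sizes. On the day of SA-H array 6 and MOD arrays 1 and 3, the median difference over the 31 genes was -0.43, and on the day of SA-H array 4 and MOD array 2 it was -0.15. SA-H array 5, alone on its day, differed from the MOD mean by a median of -0.79. The same medians over all tested were 0.00, 0.07 and -0.13. The groups of the 7 called genes do not overlap, which fixes the sign of their differences on the shared days, so only the sizes are given: H3c13 had -1.59 and -1.56, H1f2 -1.05 and -2.41, H3c4 -1.09 and -0.85, and H1f8 1.78 and 3.02. H4c17 had -2.32 and -0.97, H2ac4 -0.59 and -2.25, and H3c8 -1.28 and -0.62. Family medians lay on opposite sides on the shared days for H4 genes (-0.39 and 0.56) and for linker histones (-0.46 and 0.09). Those of the H2A, H2B and H3 genes were below 0 on both days. When limma blocked on scan day, H3c4 (-0.99) and H3c8 were no longer past fold 2, and 4 histone genes were called lower, against 7.15% of all tested. With that block H1f2, H1f8, H3c13 and H4c17 passed an adjusted p of 0.05, as 1075 of all tested did.

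**Figure D3:**
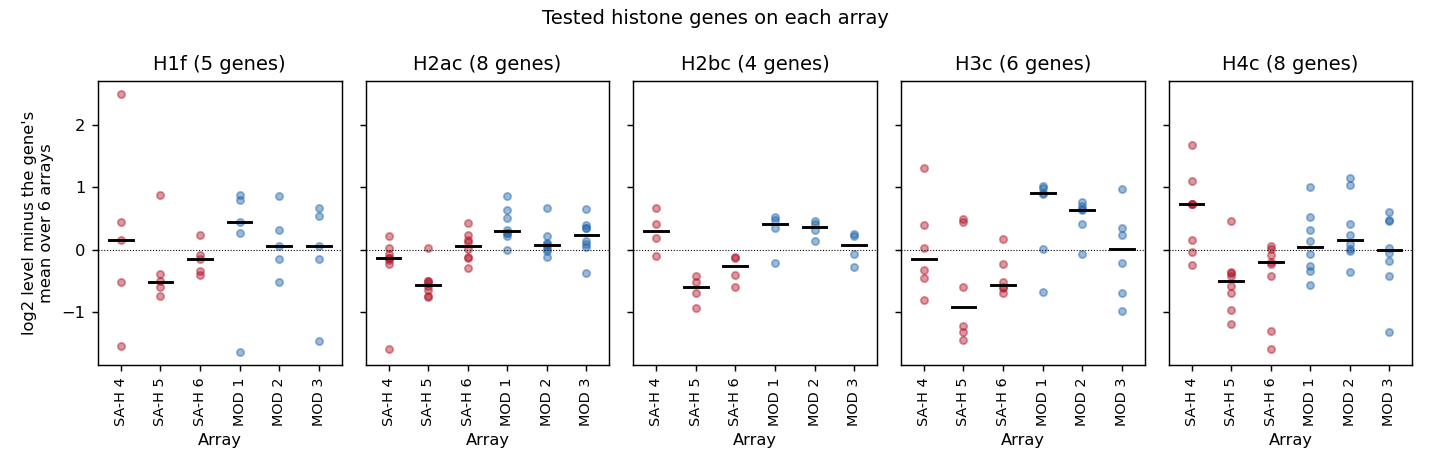
Level of each tested histone gene minus its mean over the 6 arrays (log2, points) on SA-H arrays 4, 5 and 6 (red) and MOD arrays 1, 2 and 3 (blue), by family, with the family median as a black bar. SA-H array 5 is low in every family, from -0.50 in H4c to -0.91 in H3c, and H4c is high on SA-H array 4 at 0.73.

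The remaining 17 histone genes were not compared. H2ac22 was well above background on all 6 arrays, but its spot was marked an outlier on SA-H array 5; its other levels were 6.59 and 6.75 in the SA-H group and 6.84, 6.25 and 6.71 in the MOD group. The other 16 were too dim, as in no group did all 3 arrays show them well above background. They include the linker histones H1f0 and H1f10, which were not well above background on any array, and H1f6 and H1f7, known from male germ cells. H2bc genes made up 6 of the 16, against 0 of the H4c genes. By chromosome, 24 tested genes lie on chromosome 13 with a median log2 fold change of -0.33 and 5 called lower, and 6 lie on chromosome 3 with a median of -0.56 and 1 called lower.

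Histone genes whose symbols lie outside the families above include variants that replace core histones outside S phase or at special places. Of 12 tested, 1 was called lower and 0 higher, against 5.03% and 7.74% of all tested, and 5 were lower by p alone, against 12.5%. The median log2 change was -0.30, and -0.68 without SA-H array 4. Cenpa, the H3 of the centromere, had levels of -0.74, 0.37 and 0.52 in the SA-H group, against 1.84, 1.37 and 1.21 in the MOD group. Its groups did not overlap, at a log2 fold change of -1.42 (SE 0.39, adjusted p = 0.11, limma). H2ax, which is phosphorylated beside DNA breaks, was at -0.81, H2aj at -0.67 and H2aw at -0.59, each with the SA-H arrays below the MOD arrays. These genes and Cenpa were named for the smallest p in the list, which favours groups without overlap. H3f3a and H3f3b, which encode the replacement histone H3.3, had values of 0.49 and 0.26 and overlapped between groups.

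Genes that transcribe histone genes or trim and turn over their mRNAs were called lower in 6 of 18 tested, against 5.03% of all tested. They were called higher in 0, against 7.74%. By p alone 9 were lower, against 12.5%, and the median log2 change of the 18 was -0.59. Slbp, which binds the stem-loop of histone mRNAs, had levels of 0.11, 1.06 and 0.95 in the SA-H group, against 2.50, 2.25 and 1.89 in the MOD group, a log2 fold change of -1.51 (SE 0.33, adjusted p = 0.089, limma). The groups did not overlap, and SA-H array 4 was the lowest. Zfp473, a zinc finger protein that acts with Slbp in cutting the precursor, was at -1.35 (SE 0.28) and was well above background on 4 arrays. Eri1, an exonuclease that trims the end of histone mRNAs, was at -1.37 (SE 0.28) and Casp8ap2, needed for histone gene expression, at -0.87 (SE 0.23). All of these had the SA-H arrays below the MOD arrays, as 20.7% of all tested did. They were named for the smallest p in the list, which favours groups without overlap. Npat, the activator of histone genes in S phase, was not bright enough to be tested. The count of 6 called lower was 1 with normexp, against 2.63% of all tested, and 1 in the authors' value table, against 6.92%. Among those 6, Zfp473 and Srrt were well above background on 4 arrays and Lsm11 on 5. These genes entered the tests through the MOD group alone, where they were brighter, so the filter favours a fall in them.

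Histone chaperones, which carry histones to and from DNA, were called lower in 1 of 17 tested, against 5.03% of all tested, and higher in 0, with 4 lower by p alone; 2 were called lower with normexp and 2 in the authors' value table. Their median was -0.25, and -0.02 without SA-H array 5. Supt16, a subunit of the FACT complex that opens nucleosomes, had levels of 0.18, -0.09 and 0.10 in the SA-H group, against 1.56, 1.27 and 1.51 in the MOD group. Its log2 fold change was -1.38 (SE 0.22, adjusted p = 0.0762, limma). Asf1b, the H3-H4 chaperone of dividing cells, was at -0.97, Tonsl, a reader of new H4 at replication forks, at -0.93 and Rbbp4, a subunit of chromatin assembly factor CAF-1, at -0.67, with no overlap between groups. These genes and Supt16 were named for the smallest p in the list, which favours groups without overlap. Chaf1a, the large subunit of CAF-1, was at 0.01 and overlapped.

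**Figure D4:**
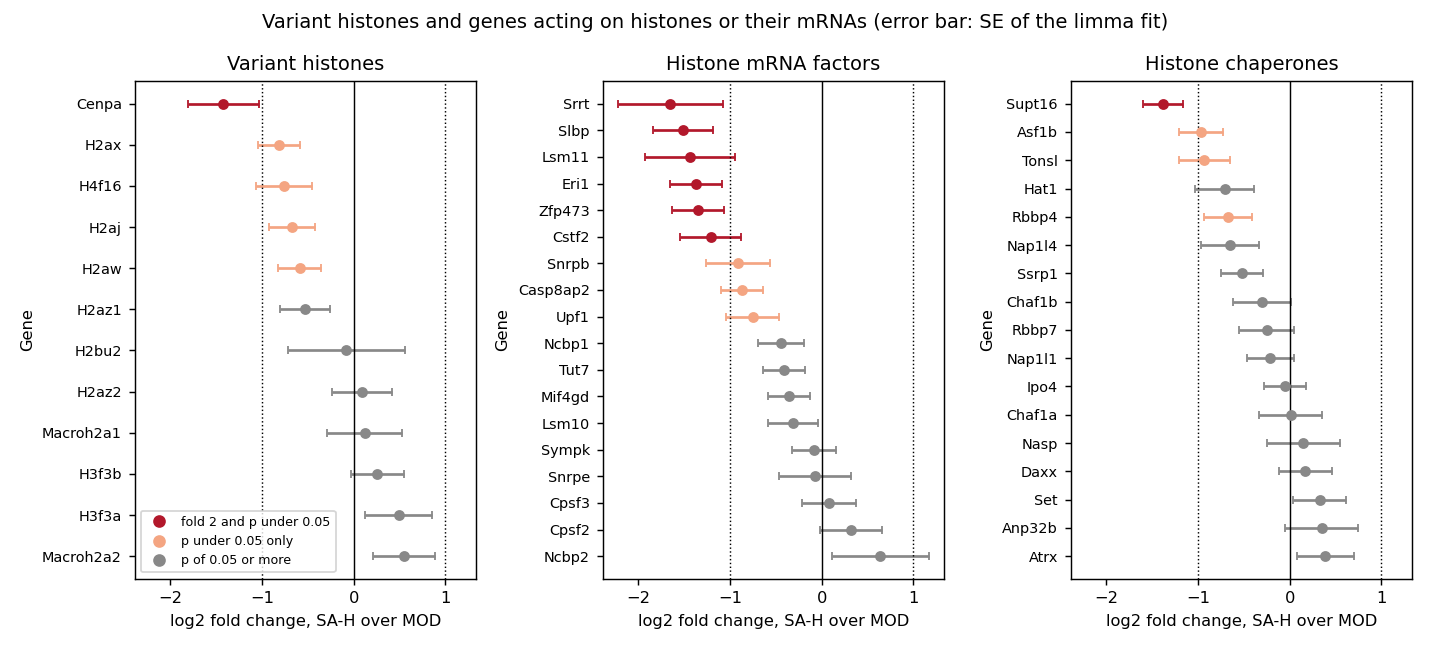
Log2 fold change, SA-H over MOD, with the SE of the limma fit, for tested variant and other histone genes outside the families (left), genes of histone mRNA transcription and processing (middle) and histone chaperones (right). Red points pass fold 2 and an unadjusted p under 0.05, and orange points the p alone; 1 of 12, 6 of 18 and 1 of 17 genes are red, and no gene passes fold 2 upward.

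Other gene lists also differed between the groups, and their part in these results was not tested. Of all tested, 5.03% were called lower and 7.74% higher, and the counts of each list below stand beside those shares. S phase genes were called lower in 5 of 25 and higher in 0 (median -0.56), and mitosis genes in 8 of 18 and 0 (median -0.96). Erythroid markers were tested for 14 of 15 genes, with 3 called lower, 1 higher and a median of -0.60. Their summed signal, in multiples of the 75th percentile of each array, was 545 to 1510 in the SA-H group and 573 to 705 in the MOD group, and Sptb was not well above background on any array. Without SA-H array 5 the erythroid median was -0.29 and the histone median -0.28. The authors' value table gave 14 of 14 erythroid markers called lower, with a median of -2.46, and 15 of 25 S phase genes, against 6.92% of all tested there. Fat markers had 4 of 6 called lower (0 in the authors' value table) and a summed signal of 5.15 to 6.10 in the SA-H group and 9.52 to 13.9 in the MOD group, with Lep not well above background on any array. The 4 fat markers called lower, the S phase gene Gins2 and the mitosis gene Ttk entered the tests through the MOD group alone. B cell markers (0 lower and 1 higher of 10 tested) and T cell markers (0 and 0 of 12) had medians of -0.09 and 0.02 (0.36 and 0.69 in the authors' value table), and ribosomal protein genes a median of 0.56, or 0.05 with quantile normalization. Macrophage markers were tested for 8 of 9 genes, with a median of -0.51 (-0.20 without SA-H array 4) and a summed signal of 65.5 to 93.0 in the SA-H group and 69.9 to 84.6 in the MOD group. C1qa, a complement gene, was the 1 called lower at -2.34. It was well above background on 5 arrays, and its level was -4.70 on SA-H array 4, against -1.06 and -1.10 on SA-H arrays 5 and 6. C1qb (-0.70) and C1qc (-0.56) were not called. Spic, a transcription factor of red pulp macrophages, was at 0.86 with the SA-H arrays above the MOD arrays. Liver markers had a summed signal of 9.08 to 13.7 in the SA-H group and 9.43 to 11.7 in the MOD group, and 1 of 4 tested, Tat, was called higher at 1.93. Serpina1a went the other way, at -0.65, with the SA-H arrays below the MOD arrays. Of 10 pancreas markers 2 were tested, with a summed signal of 2.64 to 7.75 in the SA-H group and 1.23 to 2 in the MOD group. The insulin gene Ins2 was called higher at 2.59. The other, Cela1, was at -0.84, was not called and overlapped between groups, and Cela2a was not well above background on any array.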

How the data were processed

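The authors read each array with Agilent Feature Extraction 11.0.1.1 (named in the submitters' processing notes). Per the file headers, the deposited intensity is background-subtracted and corrected for gradients, with no step that joins the arrays. A value table, also deposited, gives log2 values made by the authors, with a median of 5.34 in every column. How it was made is not given in the sources used here, its log base was read from its range, and its columns do not match the scanner files array by array (r of 0.83 to 0.91 over 13896 probes, highest with the array of the same label for 1 of 6 columns, and 5.11% to 31.5% of a column at its floor). Which array a column holds is therefore in doubt, and the table serves as an alternative only. It holds no fold changes or p-values.

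Levels are log2 processed signals minus the 75th percentile of their array. Outlier spots (172 to 634 per array) were left out, 0 spots were saturated, and spots of a probe were averaged. Symbols were found through RefSeq accessions for 27234 of 39429 probes (69.1%), and GRCm38.p6 names the build of the RefSeq tables. A probe entered the tests if 1 group had it well above background on its 3 arrays, and the brightest such probe represents a gene. Groups were compared as SA-H minus MOD with limma 3.58.1 in R 4.3.3 (lmFit, eBayes, Benjamini-Hochberg over 14474 genes and unnamed targets). The methods name no array normalization or test, only an analysis of variance in general. Other steps used Python 3.11.15, pandas 2.3.3 and matplotlib 3.10.9.

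Values on every array are given for called members, tested linker histones and the member of each core family whose probe read highest. Up to 4 genes with the smallest p are named from each of the 3 lists of variant and other histone genes, mRNA factors and chaperones. The 1 per list with its values on every array and the members named beyond this rule were chosen after their values were seen. So were Chaf1a, Spic, C1qa, C1qb, C1qc, Tat, Serpina1a, Ins2, Cela1, Lsm11, Srrt, Gins2, Ttk, H3f3a and H3f3b. Members and lists were chosen with earlier results of these data known. The fit was tested on simulated data. Alternatives covered background, scaling, values, filter, probe choice, scan day, slide scan, test and each array left out.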

Additional observations from a re-analysis of the deposited data

How the results depend on the processing

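The count of histone genes called lower, 6, was 3 with normexp on the median signal (chosen after seeing the data, since the files hold no mean signal) and 3 when a probe had to be well above background on all arrays (H1f2, H3c13 and H3c4 both times), and 11 in the authors' value table, where 3 of the 6 were shared, H4c17 turned to 0.07 and 0 genes were called higher. The share of all tested called lower, 5.03%, was 2.63% with normexp, 3.46% with all arrays above background and 6.92% in the value table. It was 14.9% with scaling by the array median. The median of the histone genes, -0.39, was -0.71 with scaling by the array median and -0.70 in the value table. Scaling by the array median also moved the median of all tested to -0.36, called 9 histone genes lower and moved the share of higher among all calls to 31.6%, against 60.6%; the value table gave 23.3%. Genes past an adjusted p of 0.05 numbered 1094 with median scaling, 1779 in the value table, 1075 with scan day as a block and 210 with normexp, against 0. All called lower numbered 2161 with median scaling and 381 with normexp, against 728, and 304 were called higher in the value table, against 1121. Leaving out each array gave 5 to 7 lower, against 3.44% to 7.64% of all tested, and 1 higher, with a median of -0.57 to -0.27. H3c4 was not past fold 2 without MOD array 1 (-0.84) or when the slide scan was a random block. H3c8 was not past it without SA-H array 5 (-0.96). Of 192 named-gene alternatives, 175 left the call as it was, 11 lost it, 5 gained it and 1 turned a called gene, and the uncalled H2bc4 changed sign in 3; the causes were not tested. No paired analysis was possible because the groups share no replicate number. Dim spots limit H4c17, H2ac4 and H3c8, which are not well above background on every SA-H array.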
